A study of Mus musculus with 6 samples.

Results

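The Hox cluster genes were followed in RNA of mouse embryonic fibroblasts, as a record of the body position that the cultured cells carry. Members were chosen by name: every locus in the deposited files whose gene names include a Hox gene of cluster a, b, c or d with its number. This gave 39 Hox genes in 28 loci of 39495 in all, with 11 genes in 7 loci of cluster A (chromosome 6), 10 in 7 of cluster B (chromosome 11), 9 in 8 of cluster C (chromosome 15) and 9 in 6 of cluster D (chromosome 2). A locus is the unit over which the fragments were estimated, and 22 of these loci held 1 Hox gene. The other 6 held 17 Hox genes that could not be told apart. They are written here by all their members, as in Hoxb7/b8.

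Hox genes encode homeodomain transcription factors that assign position along the body and along the limbs. Within each cluster the order of the genes follows the order in which they act: low-numbered genes at the 3′ end act towards the head, high-numbered genes at the 5′ end act towards the tail and the limb tips. Fibroblasts keep much of this pattern in culture, so the set of Hox genes that is on differs with the site from which the cells were taken. Genes of the same number in different clusters are paralogues with related roles.

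The libraries came from mouse embryonic fibroblasts (MEFs), mixed primary cells grown out of embryos, with the genotype Stc1+/+ (WT, 3 libraries) or Stc1-/- (KO, 3 libraries). Both genotypes were on a C57BL/6 background and were grown in DMEM with fetal calf serum and antibiotics. Stc1 encodes the secreted glycoprotein stanniocalcin-1. The targeted gene had 2245, 291 and 368 fragments in WT 1 to WT 3 and 6, 0 and 0 in KO 1 to KO 3. Its log2 fold change was -7.72 (SE 1.62), and edgeR's quasi-likelihood test over all loci did not call even this gene (adjusted p = 0.763), so that 0 calls elsewhere do not show that levels were equal. The numbers only name the libraries. Whether libraries of the same genotype stem from different embryos, and which parts of the embryos were used, is not labelled, so p-values measure the spread between these libraries, which may be technical. In bulk RNA, fewer cells of a type and less RNA per cell cannot be told apart.

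Library totals ran from 21882092 (KO 1) to 71488701 (WT 1) estimated fragments, of which the Hox loci took 8797 in KO 1 to 35630 in WT 1. Of 12 fibroblast markers 11 were found, none at 0, with a summed level of 12131 to 34364 CPM in WT and 6140 to 9825 CPM in KO libraries. CPM are fragments scaled to a common effective library size. Macrophage markers (18 of 20 found, none at 0) summed to 429, 1970 and 15998 CPM in WT 1 to WT 3 and to 2309, 578 and 649 CPM in KO 1 to KO 3. WT 2, WT 3 and KO 1 were thus the macrophage-rich libraries. Epithelial markers summed to at most 11.7 CPM in any library. Other lists summed higher: neural markers to 70.0 (KO 2) to 159 CPM (WT 2), and endothelial markers to 65.6 (WT 3) to 154 CPM (KO 2). Skeletal muscle markers summed to 12.3 (KO 2) to 100 CPM (WT 2), and germ, gonad and kidney markers to 15.5 (KO 1) to 48.1 CPM (WT 2).

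The clusters also hold microRNA genes, and 2 families are shown because their hosts are among the loci measured here. The mature sequences are from RefSeq (GRCm38.p6), 5′ to 3′, with the seed (bases 2 to 8) in capitals.
mmu-miR-10a-5p: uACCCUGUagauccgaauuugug
mmu-miR-10b-5p: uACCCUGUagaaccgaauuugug
mmu-miR-196a-5p: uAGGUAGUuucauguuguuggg
mmu-miR-196b-5p: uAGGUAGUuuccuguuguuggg
The miR-10 pair shares 1 seed and differs by U12A, and the miR-196 pair shares another and differs by A12C, with positions counted from 1 at the 5′ end of the mature RNA. Mir10a lies in the Hoxb4 locus, Mir10b in the Hoxd3/d4 locus and Mir196a-1 in the Hoxb9 locus of the files. Polyadenylated RNA was sequenced, so these loci report host transcripts and not the mature microRNAs. Hoxb8 is a known target of miR-196. Its transcript Hoxb8-201 of 2635 bases holds, at positions 2208 to 2229, a site complementary to miR-196a-5p. Of its 22 bases, 21 match the exact complement (in capitals). The lower-case g faces a U of the seed, a G:U wobble pair.
Hoxb8 site: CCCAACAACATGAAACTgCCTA

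Nearly the whole Hox complement was detected, with a trunk and a distal limb or tail portion in every library. Fragments were present in all 6 libraries at 25 of the 28 loci, and 21 loci had a mean FPKM (fragments scaled for the length of the transcript and the depth of the library, the per-length scale used here to compare loci) of at least 1. The highest was the Hoxb9 locus, with 48.1, 35.5 and 30.3 FPKM in WT 1 to WT 3 and 37.6, 48.8 and 28.8 FPKM in KO 1 to KO 3. Hoxb9 acts in the thoracic region, and its locus in the files also holds Gm53, Gm11539 and Mir196a-1. WT 1 and KO 2 were highest and WT 3 and KO 3 lowest, and the genotypes overlapped. The next loci by mean FPKM were Hoxc6 (11.7), Hoxb3/b5/b6 (9.43), Hoxa10 (9.19) and Hoxc8 (8.80).

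The lowest loci by mean FPKM, Hoxb1, Hoxd1 and Hoxb13, lay at the ends of their clusters. Hoxb1, a gene of the embryonic hindbrain, had 0 fragments in all 6 libraries, which allows up to 0.0425 CPM in WT 1, the deepest library, and up to 0.141 CPM in KO 1. Hoxd1 had 5, 3 and 0 fragments in WT and 0, 2 and 0 in KO libraries. Both stayed out of the test. Hoxb13, the tail-end gene of its cluster, was at 0.425, 1.87 and 0.352 CPM in WT 1 to WT 3 and 0.611, 0.456 and 0 CPM in KO 1 to KO 3, so WT 2 stood above the rest. Mean FPKM was also below 1 at loci inside the clusters: Hoxa4 (0.799), Hoxc11 (0.903), Hoxc12 (0.935) and Hoxd12 (0.449). The end gene Hoxd13 had a mean of 4.28 FPKM.

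**Figure D1:**
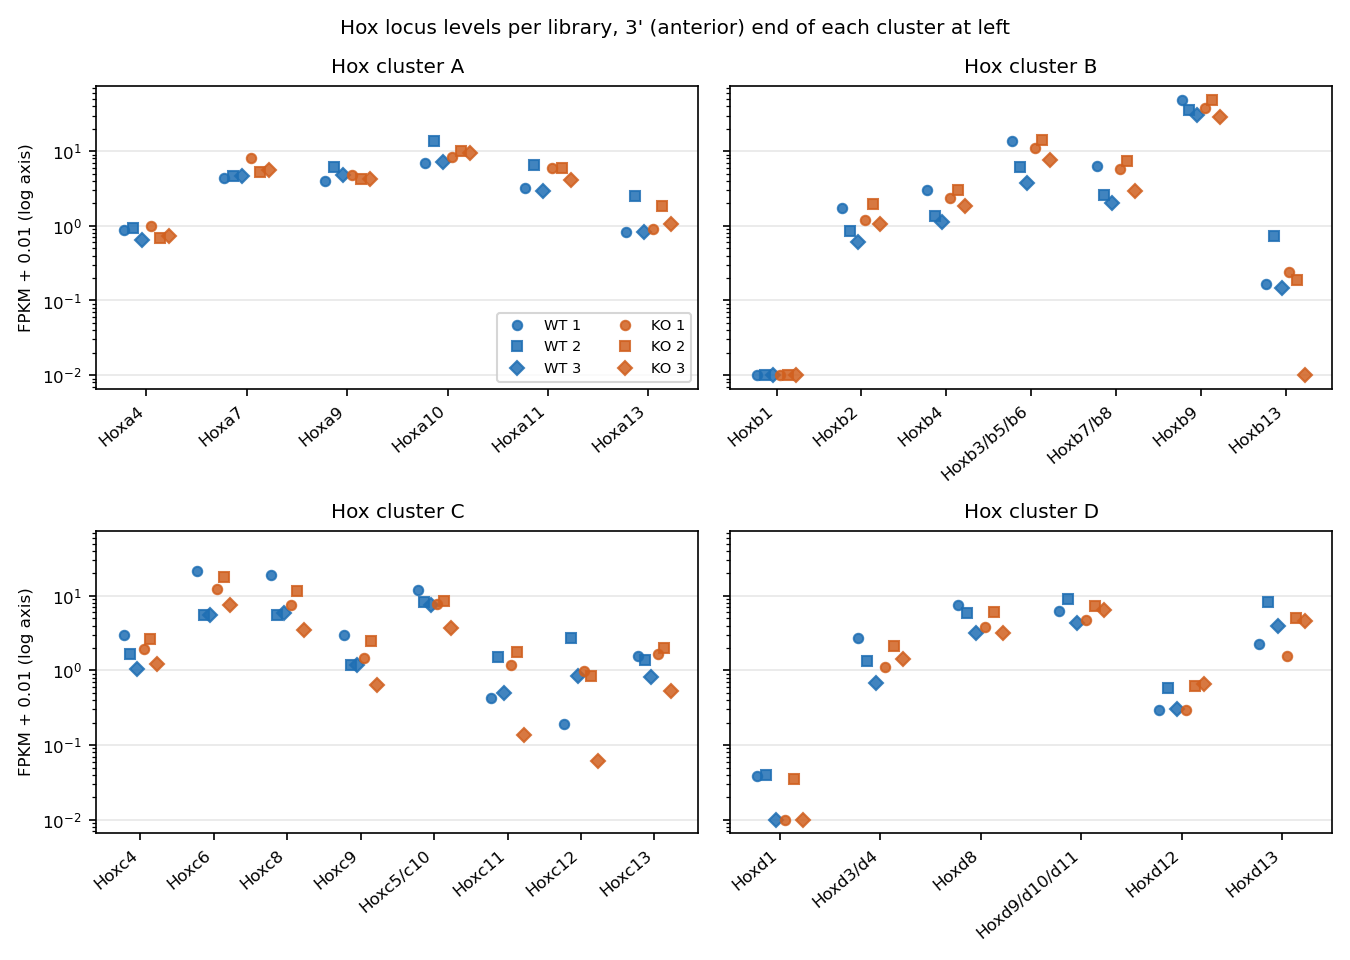
FPKM + 0.01 (log axis) of 27 Hox loci in each library, by cluster, with the 3′ end of the cluster at the left; blue symbols are the 3 WT and orange symbols the 3 KO libraries. Hoxb9 is the highest locus at 28.8 to 48.8 FPKM, Hoxb1 is at 0 throughout, and the genotypes overlap at all loci except Hoxa7.

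No Hox locus passed the test of a difference between the genotypes. edgeR's quasi-likelihood test, fitted over 15673 loci, called 0 of the 26 tested Hox loci at an adjusted p under 0.05, and it called 0.00% of all loci. At an unadjusted p under 0.05 there were 0 Hox loci higher and 0 lower in KO, where 1.60% of all loci were higher and 2.27% lower. DESeq2 also called 0 Hox loci, where it called 0.330% of all loci, and so did limma-voom (0.00% of all loci) and limma on log2 FPKM (0.00796%). The lowest unadjusted p was 0.112 (Hoxa7), and the adjusted p ran from 0.763 to 0.997. The log2 fold change of KO over WT was positive at 11 loci and negative at 15, with a median of -0.05, as over all tested loci (-0.05).

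The precision differed between loci, and it did not exclude changes of moderate size at most of them. The log2 fold change was within 0.5 of 0 at 24 of 26 loci. The exceptions were Hoxb13 at -1.36 (SE 1.31) and Hoxc12 at -1.02 (SE 1.25). The 95% interval lay inside -1 to 1 at 6 loci and reached beyond at 20. Among the narrowest was Hoxa10, with an interval of -0.76 to 0.75, and the widest was that of Hoxb13, from -4.56 to 1.85.

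**Figure D2:**
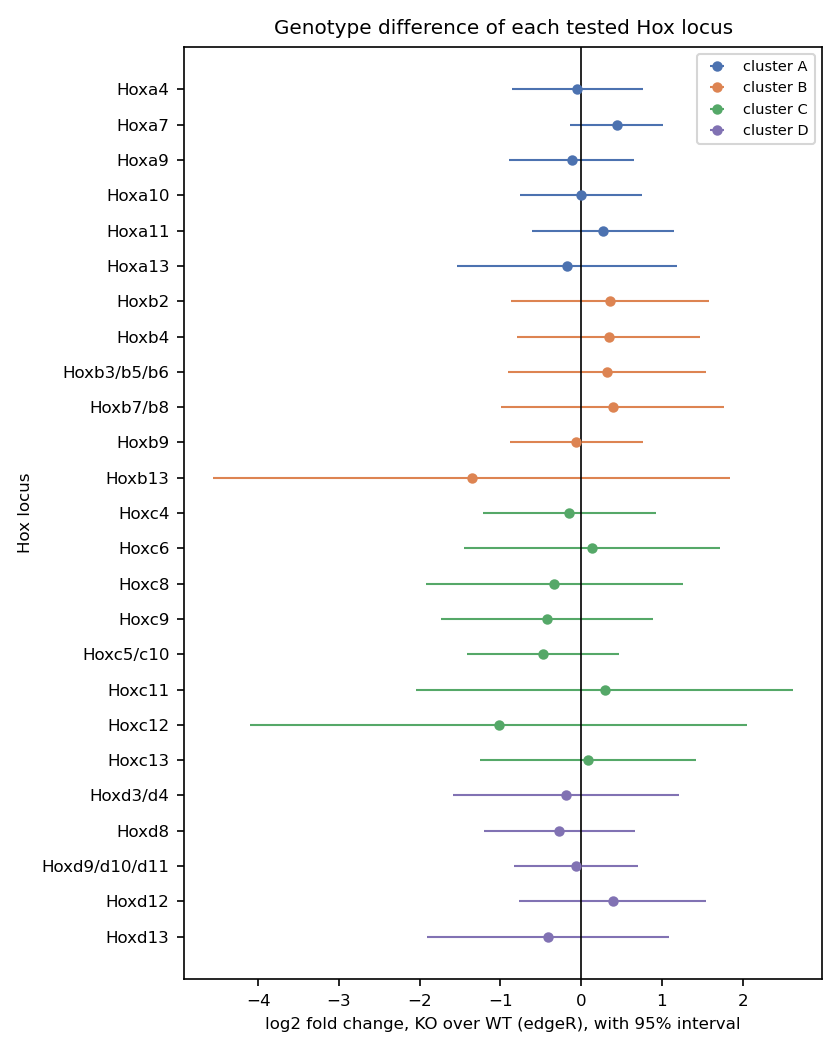
The log2 fold change of KO over WT with its 95% interval (edgeR, 3 libraries per genotype) for 25 tested Hox loci, coloured by cluster. Every interval crosses 0, and 5 lie inside -1 to 1.

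Hoxa7 was the single Hox locus whose groups did not overlap. This gene of the thoracic region stood at 11.3, 11.7 and 11.9 CPM in WT 1 to WT 3 and at 20.8, 12.95 and 13.6 CPM in KO 1 to KO 3. All 3 KO libraries lay above all 3 WT libraries, with KO 1 well above the other two. The log2 fold change was 0.44 (SE 0.24, interval -0.14 to 1.02, adjusted p = 0.763 in edgeR). That is 1 of 26 loci without overlap, and 10.6% of all loci had groups that did not overlap (5.18% with KO higher).

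The rest of cluster A varied least. Hoxa9, which acts in the trunk and the upper limb, lay between 3.98 (WT 1) and 6.03 FPKM (WT 2). Hoxa10 stood at 13.3, 27.1 and 14.4 CPM in WT and 17.7, 19.5 and 17.4 CPM in KO libraries. WT 2 alone was above the KO range while the other two WT libraries were below it. Hoxa11, needed for the forearm and the uterus, stood at 10.4, 20.4 and 9.25 CPM in WT and 17.5, 18.1 and 12.7 CPM in KO libraries, again with WT 2 on top. Its log2 fold change was 0.27 (SE 0.36), and without WT 2 it was 0.72 with an unadjusted p of 0.025 and an adjusted p of 0.896 (edgeR), while 1.19% of all loci were then higher at that unadjusted threshold. Hoxa10 also passed it then, and no other Hox locus did. Hoxa11 overlaps its antisense gene Hoxa11os, a locus of its own in the files, and the labels do not state that counting used strand, so fragments of the overlap could lie in either count. Hoxa13, a gene of the digits and the hindgut, was at 1.78, 6.68 and 2.59 CPM in WT and 2.68, 4.26 and 2.82 CPM in KO libraries.

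Cluster B loci from Hoxb2 to Hoxb9 had the same 2 libraries on top, WT 1 and KO 2. Hoxb4, a gene of the neck and hindbrain border, stood at 16.0, 6.75 and 5.57 CPM in WT 1 to WT 3 and 11.9, 15.0 and 9.01 CPM in KO 1 to KO 3. WT 1 and KO 2 were high, WT 2 and WT 3 low. Hoxb3/b5/b6 stood at 56.4, 29.5 and 14.9 CPM in WT and 44.0, 52.3 and 29.7 CPM in KO libraries. Hoxb7/b8 stood at 31.5, 12.4 and 9.13 CPM in WT and 27.1, 30.0 and 12.5 CPM in KO libraries, a log2 fold change of 0.39 (SE 0.56). Hoxb2, which patterns the hindbrain, ranged from 0.591 (WT 3) to 1.98 FPKM (KO 2). WT 3 was the lowest library at these 4 loci, and KO 3 at Hoxb9. The highest pair was WT 1 and KO 2 at 5 of the 6 tested loci of the cluster, all except Hoxb13.

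The values of Hoxb4 and Hoxc6 depended on which libraries were included. With all libraries the Hoxb4 log2 fold change was 0.34 (SE 0.46). Without WT 1 it was 0.96 (SE 0.30), with an unadjusted p of 0.024 and an adjusted p of 0.211 in edgeR. Hoxc6 behaved likewise, from 0.14 (SE 0.65) to 1.12 (SE 0.41), with an adjusted p of 0.251. Other omissions moved both the opposite way. Without the macrophage-rich libraries Hoxb4 was at -0.42 and Hoxc6 at -0.83, and Hoxc6 was also negative without WT 2 (-0.17), WT 3 (-0.18) or KO 2 (-0.21). Hoxb4 and Hoxc6 were the 2 Hox loci past the unadjusted threshold without WT 1, and 10.1% of all loci were higher at an unadjusted p under 0.05 without WT 1.

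Cluster C showed the largest differences between libraries. Hoxc6, which acts at the level of the forelimb, stood at 41.6, 10.6 and 10.6 CPM in WT 1 to WT 3 and 22.1, 33.1 and 13.8 CPM in KO 1 to KO 3. Hoxc8, a thoracic gene, stood at 33.1, 10.3 and 10.1 CPM in WT and 13.1, 22.8 and 6.66 CPM in KO libraries. Both were highest in WT 1 and then in KO 2. Hoxc9, also thoracic, stood at 11.8, 6.75 and 6.04 CPM in WT and 6.76, 9.14 and 2.46 CPM in KO libraries. Hoxc5/c10 joins a neck gene with a lumbar and hindlimb gene, and stood at 30.1, 19.8 and 17.5 CPM in WT and 19.4, 20.1 and 8.90 CPM in KO libraries, a log2 fold change of -0.48 (SE 0.38). Hoxc4 ranged from 1.02 (WT 3) to 2.93 FPKM (WT 1). This pair was highest at 6 of the 8 loci, and KO 3 was the lowest library at 6 of 8.

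Hoxc12 and Hoxc11, near the 5′ end of cluster C, broke with this order. Hoxc12 stood at 0.750, 10.8 and 3.25 CPM in WT 1 to WT 3 and 3.90, 3.24 and 0.200 CPM in KO 1 to KO 3. WT 2 was 54.3 times KO 3, and WT 1, highest at Hoxc4 to Hoxc9, was the second lowest here. Hoxc11 stood at 1.12, 3.63 and 1.18 CPM in WT and 2.82, 4.13 and 0.311 CPM in KO libraries. Hotair, the long noncoding RNA made from the region between these 2 genes, had 4, 24 and 6 fragments in WT and 14, 36 and 1 in KO libraries. It was thus low in WT 1, WT 3 and KO 3, as Hoxc11 was. Hoxc13, which controls hair and nail keratins, ranged from 0.514 (KO 3) to 1.97 FPKM (KO 2), without the fall in WT 1. In CPM it kept KO 2 (4.96) and WT 1 (4.32) as its highest pair.

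In cluster D the 2 ends ran apart. Hoxd3/d4 stood at 12.6, 8.24 and 3.29 CPM in WT and 5.17, 11.0 and 5.06 CPM in KO libraries, and Hoxd8 ranged from 3.12 (KO 3) to 7.63 FPKM (WT 1). Both were highest in WT 1. Hoxd9/d10/d11, which pattern the limb from the upper arm to the wrist, stood at 16.6, 24.0 and 11.1 CPM in WT and 14.0, 18.6 and 16.8 CPM in KO libraries. Hoxd13, the main digit gene, stood at 7.02, 24.6 and 11.5 CPM in WT and 4.60, 14.7 and 13.2 CPM in KO libraries. WT 2 was highest, KO 2 next, and KO 1 and WT 1 lowest, and the groups overlapped. Its log2 fold change was -0.41 (SE 0.61). It turned to 0.99 (SE 0.22, unadjusted p = 0.013, adjusted p = 0.9999 in edgeR) when the macrophage-rich libraries were left out, which leaves WT 1 alone against KO 2 and KO 3, and 2.09% of all loci were then higher at an unadjusted p under 0.05. Hoxd12 had a log2 fold change of 0.39 (SE 0.47). Evx2, the homeobox gene beside Hoxd13, was at 0.283, 1.01 and 0.497 CPM in WT and 0.329, 0.858 and 0.466 CPM in KO libraries, with its highest value in WT 2 as at Hoxd13.

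Hoxb4 and Hoxd13 differed in library order, with WT 1 highest at Hoxb4, WT 2 highest at Hoxd13 and KO 2 second at both. The 250 bases before their starts are printed for that reason (RefSeq, GRCm38.p6, plus strand, CG pairs not marked). They lie at chr11:96318017-96318266 and chr2:74667975-74668224.
Hoxb4: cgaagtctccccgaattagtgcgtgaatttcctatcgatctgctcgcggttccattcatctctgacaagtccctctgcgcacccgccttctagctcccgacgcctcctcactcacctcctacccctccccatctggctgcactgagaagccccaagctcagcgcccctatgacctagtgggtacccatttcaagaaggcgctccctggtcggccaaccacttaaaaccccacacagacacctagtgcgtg
Hoxd13: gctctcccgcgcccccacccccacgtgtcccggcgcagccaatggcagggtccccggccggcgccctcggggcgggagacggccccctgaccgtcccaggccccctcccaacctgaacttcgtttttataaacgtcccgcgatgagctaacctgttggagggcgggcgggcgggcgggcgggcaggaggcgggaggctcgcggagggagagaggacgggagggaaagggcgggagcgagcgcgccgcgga
The Hoxb4 stretch holds 14 CG pairs and the Hoxd13 stretch 31. RefSeq promoter windows of 300 bases were found for 22 Hox genes (24 windows), and they held a median of 14.5 CG pairs, against 7 over all 32851 windows. The letters TGATNNAT, a core bound by HOX proteins together with TALE cofactors, occurred on either strand in 16.7% of the Hox windows and 8.85% of all windows. TTTATG, the core bound by caudal proteins and searched for separately, occurred in 20.8% and 11.9%. Neither motif was found in the 2 stretches printed, which says only that these letters are not there.

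The library order was counted over the 26 tested loci, and the heat map shows 25 of them. WT 1 was the highest library at 11 loci and WT 2 at 8, while WT 3 was lowest at 11 and KO 3 at 9. All 8 loci led by WT 2 were of paralogue numbers 9 to 13. Of the 11 led by WT 1, 8 were of numbers 1 to 8. Numbers 9 to 13 made up 43.0% of the summed Hox FPKM in WT 1 and 63.0% in WT 2, the lowest and the highest value, with 48.2% to 55.6% in the KO libraries and 58.0% in WT 3. The extremes of this share were both WT libraries.

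**Figure D3:**
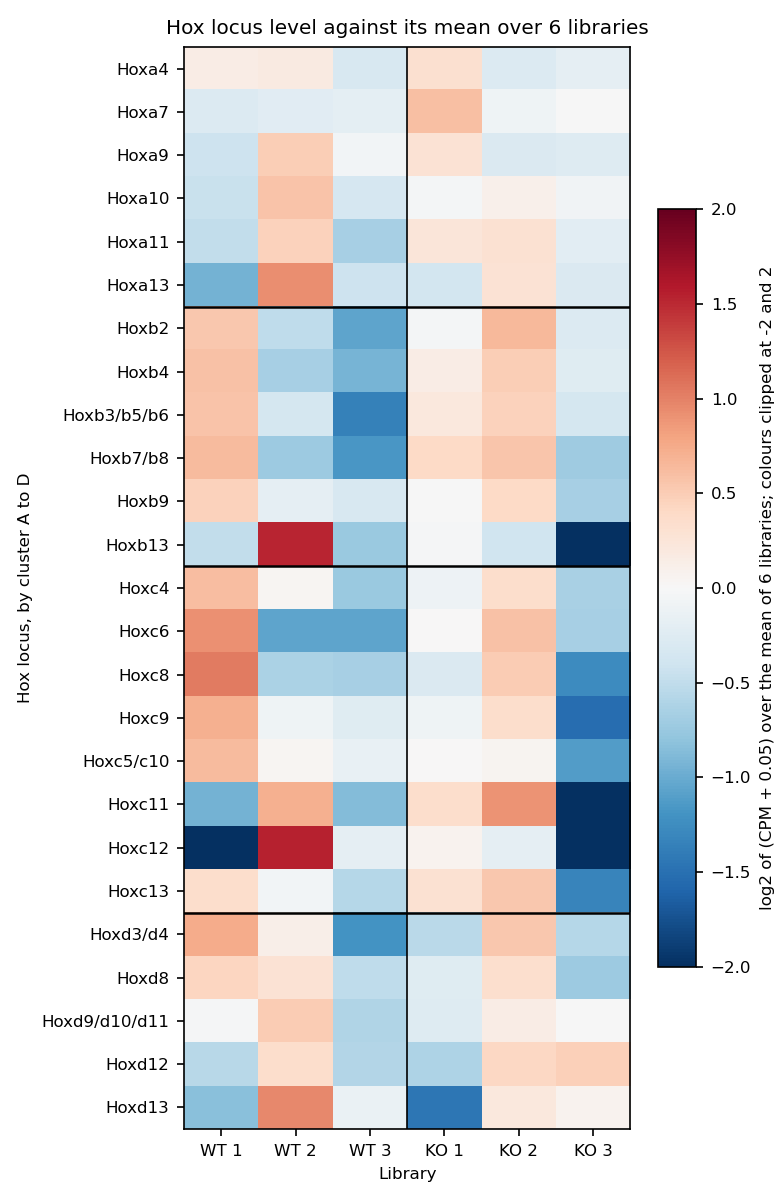
The level of 25 tested Hox loci in each library as the log2 of its CPM (plus 0.05) over its mean of the 6 libraries; red is above and blue below the mean, black lines part the clusters and the genotypes. WT 1 and KO 2 are red at most loci of clusters B and C, WT 2 is red at Hoxb13, Hoxc12 and Hoxd13, and KO 3 is blue along cluster C.

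Hox loci spread more between libraries of 1 genotype than loci in general. The median within-genotype SD of log2 CPM was 0.60 over the tested Hox loci and 0.31 over all tested loci, as a description with no test. The highest library was a median of 3.30 times the lowest at Hox loci above 0 in every library, and 2.04 times over all such loci. By cluster, this median ratio was 1.89 in A, 3.30 in B, 4.37 in C and 2.24 in D.

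Summed by cluster, the genotypes overlapped throughout. Cluster A summed to 74.1, 116 and 72.4 CPM in WT 1 to WT 3 and 116, 91.6 and 87.9 CPM in KO 1 to KO 3. Cluster B summed to 245, 140 and 110 CPM in WT and 185, 233 and 117 CPM in KO libraries. Cluster C summed to 134, 72.5 and 55.2 CPM in WT and 79.1, 107 and 38.2 CPM in KO libraries. The pair of WT 1 and KO 2 was highest in clusters B and C and not in clusters A and D. Cluster D summed to 51.0, 71.1 and 33.8 CPM in WT and 33.3, 59.0 and 43.1 CPM in KO libraries. The sum over all loci was 392 ± 117 CPM in WT and 397 ± 103 CPM in KO libraries (SD, n = 3 each). The median log2 fold change was -0.0045 in A, 0.33 in B, -0.24 in C and -0.19 in D. Leaving out single libraries turned some of these directions: the C median was 0.11 without WT 1 and 0.04 without KO 3, and the D median was 0.25 without WT 2. With any single library left out the B median stayed positive, from 0.014 (without WT 3) to 0.93 (without WT 1). WT 3, lowest in the total sum at 272 CPM, had the highest macrophage marker sum. The 2 libraries highest in the total, WT 1 and KO 2 at 504 and 490 CPM, had the lowest macrophage sums. This order did not hold for every library. KO 3 was second lowest in the total at 286 CPM, with a macrophage sum of only 649 CPM. KO 1 followed WT 1 and KO 2 in the total at 413 CPM, with the second highest macrophage sum, 2309 CPM. The part of macrophages in the library order was not tested. With the macrophage level as a covariate, 0 Hox loci passed an unadjusted p under 0.05, where 2.67% of all loci were higher and 1.29% lower.

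Other genes of the Hox clusters and their flanks also gave no call. Of 8 noncoding loci tested outside the Hox loci, 3 had positive and 5 negative log2 fold changes, 0 passed an unadjusted p under 0.05 and the median was -0.11. Hoxa11os, antisense to Hoxa11, stood at 4.86, 9.58 and 3.56 CPM in WT and 7.80, 7.80 and 5.35 CPM in KO libraries, with WT 2 on top as at Hoxa11, with which it may share fragments. Of 20 tested loci next to the clusters, 0 passed that threshold, and the median was -0.05. Skap2, an adaptor gene beyond the 3′ end of cluster A that is active in myeloid cells, was at 240 CPM in WT 3 and 45.3 to 74.2 CPM in the other libraries. Lnpk, beyond cluster D, was at 27.3, 48.3 and 38.9 CPM in WT and 29.8, 26.5 and 23.4 CPM in KO libraries (unadjusted p = 0.074 in edgeR).

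The cofactors with which Hox proteins bind DNA were present in all libraries. All 16 listed TALE homeodomain genes were tested and 0 were called, with 10 positive and 6 negative log2 fold changes and a median of 0.18. Meis1, a partner of Hox proteins on DNA, lay between 16.1 CPM (WT 3) and 33.5 CPM (KO 1).

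Polycomb and trithorax genes, whose products keep Hox clusters silent or active, showed 0 calls. All 34 were tested, 12 with positive and 22 with negative log2 fold changes, and 0 passed an unadjusted p under 0.05 in edgeR. The median was -0.17. Phc2, a Polycomb subunit, was the single member without overlap, 1 of 34 where 10.6% of all loci had none, at 153, 168.6 and 117 CPM in WT and 169.4, 174 and 182 CPM in KO libraries. Ezh2, the methyltransferase of Polycomb complex PRC2, was at 54.7 CPM in WT 2 and 16.2 to 24.6 CPM in the other libraries.

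Retinoic acid, which switches on 3′ Hox genes in the embryo, was followed through 16 tested genes of its synthesis, reception and breakdown. None was called, 7 had positive and 9 negative log2 fold changes, and the median was -0.01. Stra6, the receptor for vitamin A uptake, was low, at 0.510, 0.492 and 0.228 CPM in WT and 1.13, 0.992 and 1.04 CPM in KO libraries. It did not overlap between genotypes (log2 fold change 1.35, SE 0.41, unadjusted p = 0.017, adjusted p = 0.763 in edgeR). Of the 16 genes, 2 had all KO above all WT libraries (Stra6 and Rarb) and 1 the reverse (Aldh1a3). Over all loci 10.6% did not overlap, 5.18% with KO higher. At an unadjusted p under 0.05, 1 of the 16 genes was higher in KO, where 1.60% of all loci were. Rarb, a receptor gene that retinoic acid itself induces, was at 4.66, 1.43 and 1.55 CPM in WT and 5.87, 4.85 and 9.03 CPM in KO libraries. The synthesis gene Aldh1a3 lay the other way, at 1.97, 12.2 and 1.92 CPM in WT and 1.22, 1.90 and 1.49 CPM in KO libraries, where WT 2 made most of the difference. Of the caudal and ParaHox list only Gdf11, a ligand that advances posterior Hox genes, had enough fragments to be tested, at 118, 24.5 and 40.04 CPM in WT and 79.3, 88.6 and 106 CPM in KO libraries.

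Other positional factors were set beside the Hox loci. Of 26 genes of limb and body wall 24 were tested, with 16 positive and 8 negative log2 fold changes, 0 called, and a median of 0.17. Tbx3, a limb and body wall regulator, stood at 36.3, 21.4 and 16.8 CPM in WT and 64.0, 52.1 and 43.9 CPM in KO libraries. All KO libraries were above all WT libraries (log2 fold change 1.10, SE 0.33, unadjusted p = 0.015, adjusted p = 0.763 in edgeR). Tbx3 was 1 of 24 without overlap, where 10.6% of all loci had none (5.18% with KO higher). At an unadjusted p under 0.05, 2 of the 24 were higher in KO, where 1.60% of all loci were. Tbx5, a gene of the forelimb and heart, lay between 1.63 (WT 3) and 7.21 CPM (KO 2). Hindlimb genes were present as well, with Tbx4 between 3.58 (WT 1) and 15.0 CPM (WT 2) and Pitx1 between 1.29 (WT 1) and 8.99 CPM (WT 2). WT 2, which was highest at the digit gene Hoxd13, was thus also highest at these 2 hindlimb genes, and WT 1 was lowest at them.

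Factors of the head, where Hox genes are mostly silent, had their highest summed level in KO 3, with KO 2 next. Of 21 genes of head mesenchyme and forebrain 16 were tested. The log2 fold change was positive at 15 of them, and its median was 1.32 beside -0.05 over all tested loci. None was called in edgeR, and 3 passed an unadjusted p under 0.05 (Pax3, Tfap2b and Six2), which 1.60% of all loci did in that direction. The summed level was 57.9, 57.2 and 41.2 CPM in WT 1 to WT 3 and 46.6, 87.1 and 208 CPM in KO 1 to KO 3. KO 3 stood apart, KO 2 also lay above the WT range and KO 1 lay within it. Without KO 3 the median was 0.47, and 13 of 16 log2 fold changes were positive. Pax3, a neural crest and muscle precursor gene, stood at 2.58, 0.586 and 2.63 CPM in WT and 2.35, 7.27 and 24.1 CPM in KO libraries (log2 fold change 2.54, SE 0.99). Tfap2b, another neural crest gene, stood at 0.736, 0.234 and 1.32 CPM in WT and 1.03, 2.55 and 13.4 CPM in KO libraries. Six2, also on the kidney list, stood at 1.501, 3.49 and 1.57 CPM in WT and 3.76, 3.75 and 9.49 CPM in KO libraries. Msx1, of the limb list and also a gene of the facial mesenchyme, stood at 1.97, 1.01 and 0.952 CPM in WT and 0.470, 8.07 and 26.1 CPM in KO libraries. KO 3 thus combined the highest head factor sum with the lowest cluster C sum. Other libraries did not pair them this way. KO 2 was second highest in both sums (87.1 and 107 CPM), and WT 3 was lowest in head factors and second lowest in cluster C (41.2 and 55.2 CPM). Whether the head factor and cluster C levels are linked was not tested.

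**Figure D4:**
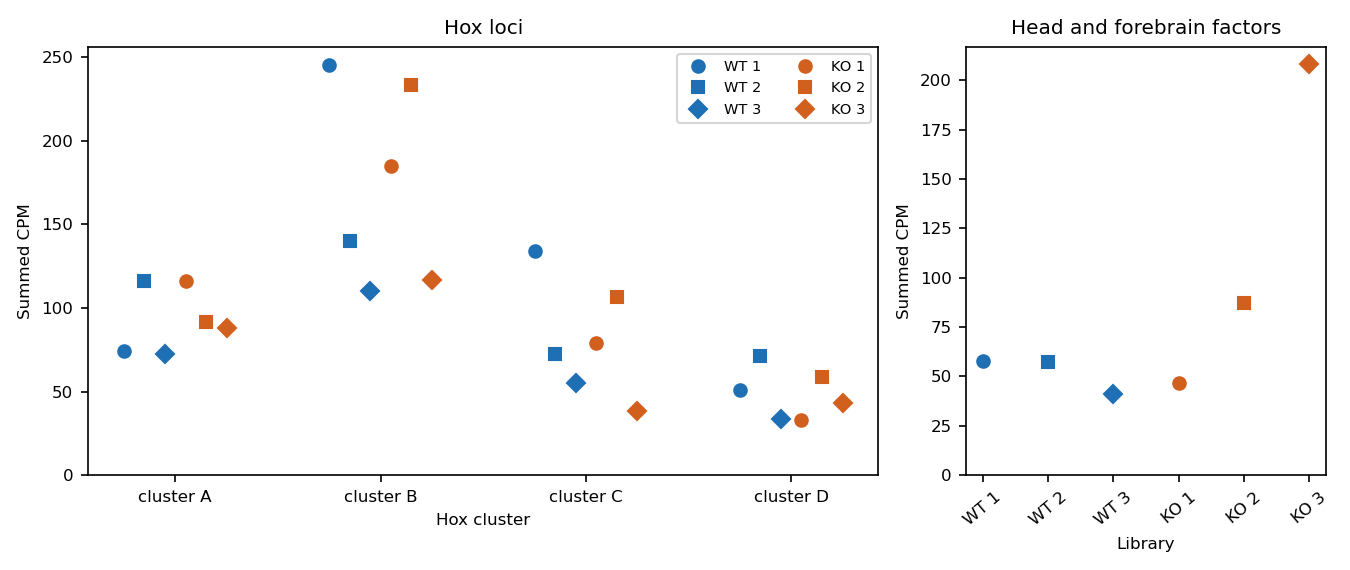
Summed CPM of the Hox loci of each cluster (left) and of the head and forebrain factors (right) in each library; blue symbols are WT, orange symbols KO, and both vertical axes start at 0. WT 1 and KO 2 lead clusters B and C, and KO 3 is lowest in cluster C at 38.2 CPM and highest for head factors at 208 CPM.

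The authors' deposited table held 16 rows with a Hox gene, of which 14 carry a test. In the authors' deposited table the lowest p of these rows was 0.237 (Hoxb13), every q was 1, and the log2 fold change ran from -1.31 to 0.41. Over that whole table, 17 of 8799 tested rows had a q under 0.05. It held no row for Hoxa7, Hoxb9, Hoxb7/b8, Hoxc6 or Hoxc8, among others, so it says nothing on these loci.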

How the data were processed

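Polyadenylated RNA was sequenced with a stranded library kit, per the labels' protocols. The submitters' processing notes name Cuffdiff 2.0.1, TopHat2 2.0.6, CASAVA 1.8.2 and the mm10 build. Estimated fragment counts, FPKM and 2 scaled fragment signals per locus were deposited for every library, per the file headers; the signals were not used. The deposited expected counts were rounded to whole numbers. The authors' comparison table gives FPKM means, log2 fold changes, p-values and q-values. Of 39495 loci, 2667 without a gene name (0.507% to 0.555% of fragments) and 16 marked HIDATA were left out. For the other 36812 loci a robust quasi-likelihood fit was made in edgeR 4.0.16 (R 4.3.3) after filterByExpr and TMM scaling, with Benjamini-Hochberg adjustment over 15673 tested loci. The script was tested on simulated data. The 95% intervals use the fit's degrees of freedom. Floors of 3 counts cover counting error only. Alternatives were DESeq2 1.42.0, limma 3.58.1 (voom, or log2 FPKM with a pseudocount of 1 or 0.1), other scalings and filters, a macrophage covariate, and fits without libraries. Values are given for Hox loci with a mean FPKM of at least 1, an unadjusted p under 0.05 or groups that do not overlap, and for up to 4 members with the smallest p of each list, of which not all are printed; Meis1, Ezh2, Evx2, Tbx4, Tbx5 and Pitx1 were chosen after their values were seen. Members and lists were chosen with earlier results of these data known. Sequences are from RefSeq (GRCm38.p6) and GENCODE M21. A few results are not reported here and 1 Hox locus is not drawn; counts and sums include it.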

Additional observations from a re-analysis of the deposited data

How the results depend on the processing

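No paired analysis was possible because the labels give the libraries no replicate numbers. The same 3 index tags were used for both genotypes, but no label says that a tag marks an embryo, culture or batch, so tags were not used as pairs. Under 17 alternatives 0 Hox loci were called at an adjusted p under 0.05; the smallest such value was 0.211, for Hoxb4 without WT 1. Leaving out 1 library at a time gave 0 to 2 Hox loci higher in KO at an unadjusted p under 0.05 (2 each without WT 1 and without WT 2), and leaving out the 3 macrophage-rich libraries gave 1. The number lower was 0 throughout. The median log2 fold change of the Hox loci was -0.40 without the macrophage-rich libraries and -0.24 to 0.19 with 1 library left out. The cluster A median ranged from -0.15 to 0.42 with 1 library left out (0.42 without WT 2), and the cluster B median was -0.48 without the macrophage-rich libraries. Without those libraries the sign turned at 12 of 26 loci, among them Hoxc12 (1.18), Hoxb7/b8 (-0.57), Hoxb4 (-0.42), Hoxc6 (-0.83) and Hoxd13 (0.99). With 1 library left out it also turned at Hoxc12 (-1.55 to 0.30), Hoxc6 (-0.21 to 1.12) and Hoxd13 (-0.74 to 0.25), where Hoxc12 and Hoxd13 were positive without WT 2 only; with the macrophage covariate Hoxc6 was at -0.024. The cause was not tested. Of the 26 loci, 18 changed sign under at least 1 alternative and 8 kept their sign under every alternative that gave a value, Hoxa7 (0.19 to 0.57) among them. Stricter filters removed Hoxb13 and Hoxc12 in part of the alternatives. Hoxb13 had low counts, from 0 (KO 3) to 80 fragments (WT 2), while Hoxc12 ranged widely, from 9 (KO 3) to 463 fragments (WT 2).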

Other observations

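Several genes outside the Hox clusters had the library order of clusters B and C, with WT 1 and KO 2 as the highest pair; these were chosen after their values were seen. Irx1, a homeobox gene of limb and body wall, stood at 112, 21.1 and 8.50 CPM in WT 1 to WT 3 and 23.9, 80.3 and 13.9 CPM in KO 1 to KO 3. Its neighbour Irx2 stood at 51.2, 12.7 and 6.10 CPM in WT and 12.5, 48.0 and 11.4 CPM in KO libraries. Twist2, a regulator of dermal mesenchyme, stood at 339, 42.4 and 24.1 CPM in WT and 185, 318 and 75.1 CPM in KO libraries. En1, which marks ventral limb ectoderm and a trunk dermal fibroblast lineage, stood at 43.7, 14.0 and 5.40 CPM in WT and 31.4, 43.6 and 15.2 CPM in KO libraries. Crabp1, a retinoic acid binding protein of mesenchyme, stood at 457, 292 and 22.8 CPM in WT and 76.1, 307 and 197 CPM in KO libraries. WT 3 was the lowest library at all 5 genes, and the genotypes overlapped at each.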
